A study of Mus musculus with 8 samples.

Results

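Costimulatory receptors of CD8+ T cells were described in RNA-Seq of P14 cells. The 10 genes, *Cd28*, *Icos*, *Cd226*, *Slamf6*, *Cd27*, *Tnfrsf4*, *Tnfrsf9*, *Tnfrsf18*, *Tnfrsf1b* and *Tnfrsf14*, were taken by symbol, not by their values, from a table of 24303 genes, and all 10 were in it. P14 cells are mouse CD8+ T cells on a C57BL/6 background that carry a transgenic T cell receptor (TCR) for GP33, a peptide of lymphocytic choriomeningitis virus. Spleen cells of all conditions were activated on plates coated with anti-CD3 and anti-CD28 until day 2, so CD28 was engaged in every condition, and the activated cells were pooled before they were split. The Effector condition, which received GP33 from day 2, was harvested on day 7 and the rest on day 19. Of these, Acute-2d was rested from day 2, and Acute-7d, which received GP33 until day 7, was rested from then on. T_Dysf cells (labelled dysfunctional) received GP33 repeatedly until day 19 and TGF-β1 from day 7, without further anti-CD28, so continued antigen and TGF-β1 cannot be told apart. All cells were cultured with IL-2 and IL-15 and were sorted as viable CD8+ cells. Each condition has 2 libraries, described as biological replicates, but cells pooled on day 2 can share a source, and p-values then cover only what came after it.

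A T cell needs a second signal besides the TCR to expand, survive and make cytokines. CD28 and ICOS are relatives that recruit PI3-kinase, CD28 binding CD80 and CD86 and ICOS binding ICOS ligand. CD226 (DNAM-1) binds CD155 and CD112, which the inhibitory receptor TIGIT also binds. SLAMF6 (Ly108 in mice) binds itself on the neighbouring cell, signals through the adaptor SAP, and marks progenitor cells among exhausted T cells. The other receptors belong to the TNF receptor superfamily and signal through TRAF adaptors: CD27, OX40 (*Tnfrsf4*), CD137 (*Tnfrsf9*), GITR (*Tnfrsf18*), TNFR2 (*Tnfrsf1b*) and HVEM (*Tnfrsf14*). Some, such as CD137 and OX40, are induced by TCR engagement, whereas CD27 is already present on naive cells.

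Promoter windows, the 250 bases before and 50 after an annotated start, were matched by symbol to RefSeq windows on GRCm38.p6 for 7 of the 10 genes, in 8 windows. *Cd28*, *Icos* and *Cd226* were not matched. The windows of the 4 genes that passed the test between T_Dysf and Acute-7d are printed to show what lies at the starts of 2 genes that fell (*Slamf6*, *Cd27*) and 2 that rose (*Tnfrsf1b*, *Tnfrsf9*). Capitals mark matches, on either strand, to TGANTCA (AP-1), to CTTTGAA or CTTTGAT or CTTTGTA or CTTTGTT (TCF/LEF) and to the NF-κB motif. The motifs were chosen with the values known, and a match is not evidence of binding.
*Slamf6*, chr1:171917212-171917511, plus strand: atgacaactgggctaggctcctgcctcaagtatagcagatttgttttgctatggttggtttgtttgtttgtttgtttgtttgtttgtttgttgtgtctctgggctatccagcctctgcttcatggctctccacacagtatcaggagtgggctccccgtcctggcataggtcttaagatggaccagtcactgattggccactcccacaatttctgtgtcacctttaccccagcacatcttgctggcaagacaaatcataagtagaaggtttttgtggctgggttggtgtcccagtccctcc
*Cd27*, chr6:125236978-125237277, minus strand: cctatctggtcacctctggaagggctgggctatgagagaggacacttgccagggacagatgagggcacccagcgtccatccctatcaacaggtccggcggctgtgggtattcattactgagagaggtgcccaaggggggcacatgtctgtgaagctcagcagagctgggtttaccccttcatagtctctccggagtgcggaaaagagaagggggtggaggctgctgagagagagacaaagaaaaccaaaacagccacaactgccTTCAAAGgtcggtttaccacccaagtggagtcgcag
*Tnfrsf1b*, chr4:145246821-145247120, minus strand: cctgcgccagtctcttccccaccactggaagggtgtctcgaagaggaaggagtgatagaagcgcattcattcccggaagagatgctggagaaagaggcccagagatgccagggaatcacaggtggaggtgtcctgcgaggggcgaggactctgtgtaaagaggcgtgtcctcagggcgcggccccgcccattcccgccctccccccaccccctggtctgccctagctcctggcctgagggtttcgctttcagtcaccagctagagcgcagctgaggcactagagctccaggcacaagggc
*Tnfrsf9*, upstream start, chr4:150919905-150920204, plus strand: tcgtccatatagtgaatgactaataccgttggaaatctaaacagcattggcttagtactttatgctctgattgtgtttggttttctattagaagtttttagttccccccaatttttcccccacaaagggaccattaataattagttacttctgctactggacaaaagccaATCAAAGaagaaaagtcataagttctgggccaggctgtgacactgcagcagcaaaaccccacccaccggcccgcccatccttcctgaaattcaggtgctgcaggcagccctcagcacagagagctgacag
*Tnfrsf9*, downstream start, chr4:150927749-150928048, plus strand: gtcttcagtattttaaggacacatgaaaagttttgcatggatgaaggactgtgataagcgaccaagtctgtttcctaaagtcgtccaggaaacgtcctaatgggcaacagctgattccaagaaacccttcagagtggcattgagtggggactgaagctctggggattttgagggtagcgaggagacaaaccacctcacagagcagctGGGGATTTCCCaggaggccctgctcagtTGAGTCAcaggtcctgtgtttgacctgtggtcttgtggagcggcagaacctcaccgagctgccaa
The downstream start of *Tnfrsf9* had an NF-κB match beginning at position -43 from the start and an AP-1 match at -15. Its upstream window held a TCF/LEF match at -80, and that of *Cd27* held one at 14. The *Slamf6* and *Tnfrsf1b* windows held none of these letters. Of 32851 windows of the same length, 8.5% held the NF-κB motif, 7.8% the AP-1 motif and 16.9% a TCF/LEF motif.

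Values are normalized counts, that is, estimated read counts per gene divided by a size factor for each library. Each library had 19382147 to 24856224 reads on genes, and 3 reads, taken as the floor, corresponded to 2.59 to 3.35 normalized counts. A difference was called when limma, fitted to log2(normalized count + 1) of all genes and all 8 libraries, gave both a change of 2-fold or more and, with p-values adjusted by Benjamini-Hochberg over the whole table, an adjusted p under 0.05. Fold changes are on that scale, and ± is the standard error. Summed CD8+ T cell markers ran from 120592 to 128267 in T_Dysf and from 56499 to 71313 in the other libraries. The 5 markers of CD4 T cells and regulatory T cells summed to between 2985 and 3294 in T_Dysf and to between 1572 and 1899 elsewhere. Among them *Cd4* was between 1.01 and 13.0 everywhere and *Zbtb7b* between 1041 and 1625. *Ikzf4* was at 1902 and 1885 in T_Dysf and between 260 and 610 elsewhere. *Foxp3* was between 2.15 and 49.5 and *Cd40lg* between 0 and 13.0. The part of CD4+ cells was not tested. The titles of 3 libraries, both of Effector and the first replicate of Acute-7d, carry the word RESUB, whose meaning is not given. Effector therefore cannot be told apart from RESUB in comparisons with T_Dysf and Acute-2d, which have no such library. T_Dysf replicate 1 also stood apart, with 51.0% of its low values at whole multiples of 1 read. Fewer cells that carry a transcript and less transcript per cell cannot be told apart in these bulk libraries.

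The receptors did not move as a group. Against Acute-7d, 4 of the 10 were called in T_Dysf, *Tnfrsf9* and *Tnfrsf1b* higher and *Slamf6* and *Cd27* lower. In the same comparison 5.57% of all genes were called, and 8.01% of the 12028 genes with a mean of at least 50, a level that all 10 receptors reached. The same 4 genes were called against Acute-2d, where 7.35% of all genes and 10.5% of those with that mean were. Against Effector, *Tnfrsf1b* was called higher and *Slamf6*, *Cd27* and *Tnfrsf4* lower, with 9.22% of all genes called and 13.7% of those with that mean. The median log2 fold change over the 10 receptors was -0.46, -0.48 and -0.04 in these comparisons, against 0.00 over all genes in each. These comparisons share the T_Dysf libraries and are not independent of each other.

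**Figure D1:**
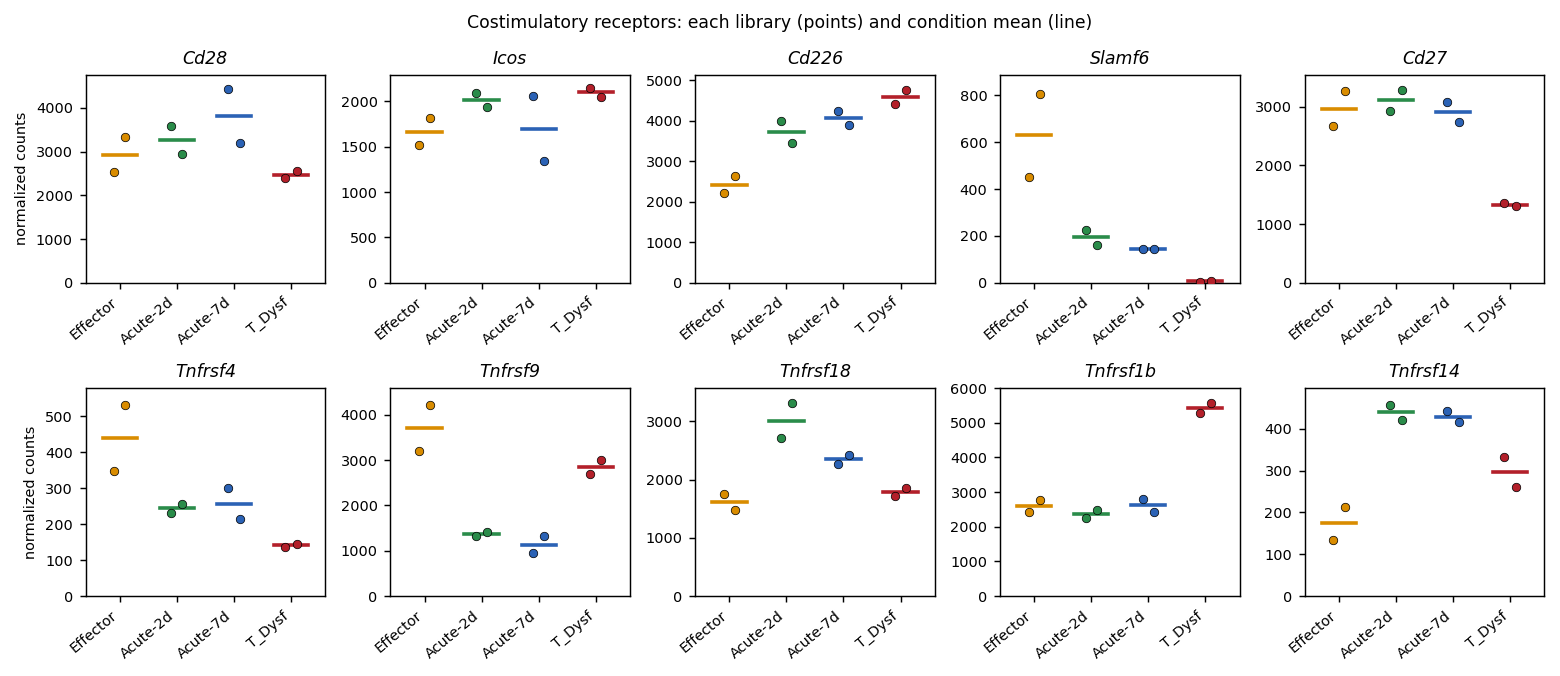
Normalized counts (y axis, linear, from 0) of the 10 costimulatory receptors in the 2 libraries of each condition (points) with the condition mean (line). *Slamf6* and *Cd27* are lowest and *Tnfrsf1b* highest in T_Dysf, *Tnfrsf9* is high in both Effector and T_Dysf, and *Cd28* and *Icos* overlap between most conditions.

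*Slamf6* had the widest range of the 10 receptors, with a highest condition mean 120 times the lowest. It stood at 452 and 807 in Effector, at 227 and 162 in Acute-2d, at 143 and 143 in Acute-7d, and at 5.18 and 5.34 in T_Dysf. Every T_Dysf library was below every other library, and every Effector library above every other. The T_Dysf values rest on 6 reads in each library, which is above the floor. *Slamf6* fell in T_Dysf by 4.53 ± 0.33 on the log2 scale against Acute-7d (adjusted p = 0.00488), with -4.95 ± 0.33 against Acute-2d (adjusted p = 0.00330) and -6.60 ± 0.33 against Effector (adjusted p = 0.00184). With so few reads the size depends on the pseudocount, and with 10 in place of 1 the log2 change against Acute-7d was -3.33. These 3 calls held under all 20 alternatives tried.

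*Slamf6* rose in Effector, by 2.07 ± 0.33 against Acute-7d (adjusted p = 0.0243) and by 1.65 ± 0.33 against Acute-2d (adjusted p = 0.0359). The Effector libraries differed from each other by more than those of any other condition, with an SD of 250 around a mean of 629. The call against Acute-7d was lost without Effector replicate 2 (1.65, adjusted p = 0.0577) and without either Acute-7d or either T_Dysf library (2.07, adjusted p = 0.0621 to 0.111). The call against Acute-2d was lost without Effector replicate 2 (1.23) and without any of the 6 libraries of the other conditions (1.40 to 1.89, adjusted p = 0.0750 to 0.129).

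The SLAM family around *Slamf6* moved in both directions. Of 11 listed receptors and adaptors in the table, 2 rose and 2 fell in T_Dysf against Acute-7d, where 5.57% of all genes were called. The median was 0.59, or 0.00 with genes at the floor set to no change or to their bound. *Ly9* (SLAMF3), a homophilic receptor of the same gene cluster, was at 3024 and 2691 in Acute-7d and at 730 and 587 in T_Dysf, and fell by 2.12 ± 0.13 on the log2 scale (adjusted p = 0.00393). *Cd84* (SLAMF5), another homophilic member, was at 2043 and 2122 and at 595 and 602, and fell by 1.80 ± 0.06 (adjusted p = 0.000599). T_Dysf was thus below every other library for both, as for *Slamf6*.

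In the opposite direction moved *Cd244a*, which encodes the receptor 2B4, and *Sh2d1b1*, which encodes the SAP-related adaptor EAT-2. *Cd244a* was at 565 and 669 in Acute-7d and at 4625 and 4737 in T_Dysf, a rise of 2.93 ± 0.47 on the log2 scale (adjusted p = 0.0299). *Sh2d1b1* was at 14.5 and 37.4 and at 416 and 367, a rise of 4.0 ± 0.51 (adjusted p = 0.0176). Both genes are also used by NK cells. The 5 NK cell markers summed to between 548 and 814 in T_Dysf, to between 1132 and 1645 in Acute-7d and to between 344 and 654 in Effector and Acute-2d, but they did not move together. *Tyrobp* was at 230 and 208 in T_Dysf and between 13.4 and 50.5 elsewhere (3.01 ± 0.69 against Acute-7d, adjusted p = 0.0674), and *Klrb1b* at 32.4 and 42.5, against 1.05 to 28.1 elsewhere. Most of the Acute-7d sum was *Klrb1c*, at 1005 and 1384 in Acute-7d and at 243 and 544 in T_Dysf. *Gzmm* was at 81.4 and 76.7 in Acute-7d and at 40.6 and 17.8 in T_Dysf, and neither of these 2 was called. *Ncr1*, a defining NK cell gene, fell in T_Dysf to 2.59 and 1.78, at or under the floor, from 30.1 and 105 in Acute-7d (called, adjusted p = 0.0343). The part of NK cells in these differences was not tested.

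*Sh2d1a*, which encodes SAP, and *Fyn*, the kinase that SAP recruits, fell outside the rule for named genes and were chosen after their values were seen. *Sh2d1a* was lower in T_Dysf than in Acute-7d by 0.71 ± 0.07 and *Fyn* higher by 0.70 ± 0.08, both under the 2-fold limit. Against Effector both were called, *Sh2d1a* at -1.29 ± 0.07 (adjusted p = 0.00190) and *Fyn* at 1.22 ± 0.08 (adjusted p = 0.00357).

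**Figure D2:**
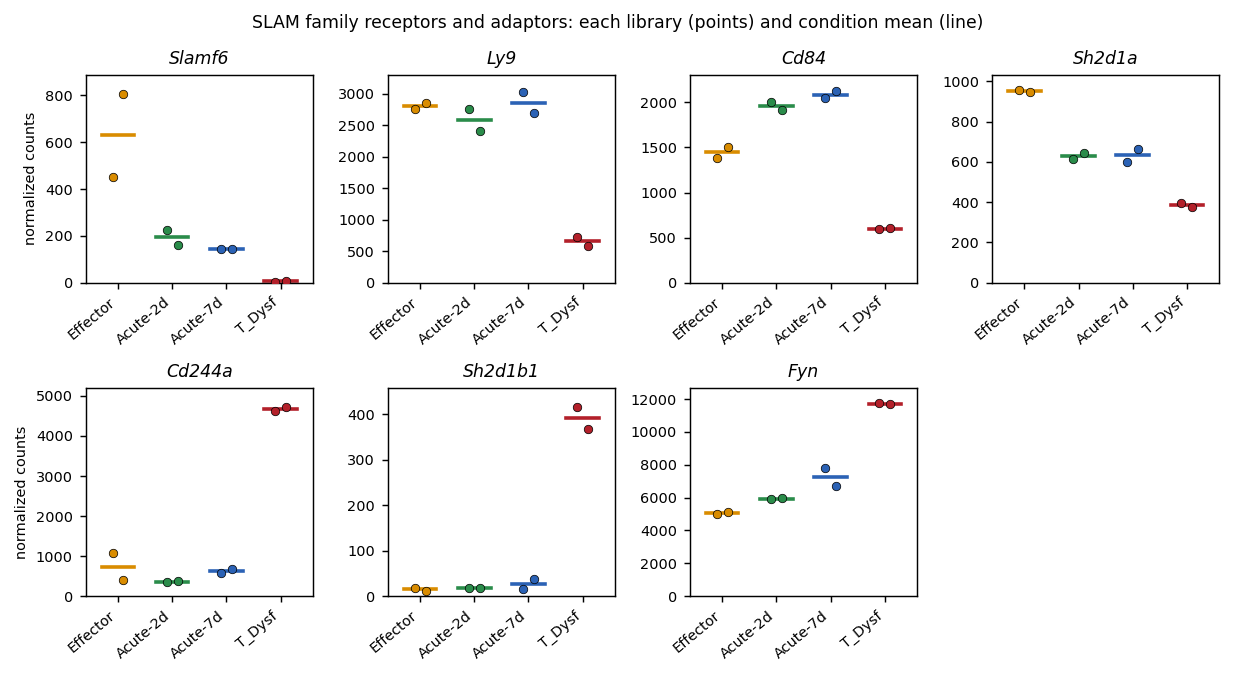
Normalized counts (y axis, linear, from 0) of SLAM family receptors and adaptors in the 2 libraries of each condition (points) with the condition mean (line). *Slamf6*, *Ly9*, *Cd84* and *Sh2d1a* are lowest in T_Dysf, and *Cd244a*, *Sh2d1b1* and *Fyn* are highest there.

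*Cd28* and *Icos* were not called in any of the 6 comparisons. *Cd28* was at 2528 and 3334 in Effector, at 3576 and 2946 in Acute-2d, at 4433 and 3191 in Acute-7d and at 2390 and 2551 in T_Dysf. T_Dysf was below both Acute conditions in every library and overlapped Effector. Its difference from Acute-7d was -0.61 ± 0.22 (adjusted p = 0.172), and its 95% interval, from -1.18 to -0.03, reached past a 2-fold difference. *Icos* was at 1522 and 1812 in Effector, at 2091 and 1937 in Acute-2d, at 2062 and 1338 in Acute-7d and at 2147 and 2054 in T_Dysf. The conditions overlapped for *Icos* except that T_Dysf and Acute-2d were each above Effector. Its T_Dysf difference from Acute-7d was 0.34 ± 0.22, with an interval from -0.23 to 0.91 (adjusted p = 0.401). The order of *Icos* means was T_Dysf, Acute-2d, Acute-7d and Effector, and no neighbours in it differed beyond their spread (adjusted p = 0.881 to 1.0).

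Among the ligands of the CD28 family, *Cd80* rose in T_Dysf. It was at 325 and 368 in Acute-7d and at 664 and 741 in T_Dysf (1.02 ± 0.10, adjusted p = 0.00945), and at 618 and 558 in Effector. *Cd86* was at 208 and 172 in Acute-7d, at 263 and 270 in T_Dysf and at 450 and 462 in Effector. It was called only in Effector against Acute-2d, at 1.68 ± 0.30 (adjusted p = 0.0287). *Icosl* was not called in any comparison, and ran from 52.2 in an Effector library to 264 in a T_Dysf library. Both CD80 and CD86 can come from antigen-presenting cells. The myeloid markers summed to between 333 and 364 in T_Dysf and to between 263 and 648 elsewhere. The 5 dendritic cell markers in the table summed to between 3644 and 3845 in T_Dysf and to between 829 and 2294 elsewhere, so this sum was highest in T_Dysf, as *Cd80* was. Most of the T_Dysf sum was *Itgax*, at 3306 and 3212 in T_Dysf and between 296 and 1107 elsewhere, called against Acute-2d and Effector but not against Acute-7d (1.92 ± 0.45, adjusted p = 0.0711). *H2-Ab1* fell in T_Dysf by 1.77 ± 0.35 against Acute-7d (adjusted p = 0.0470), and *Clec9a* and *Siglech* were at or under the floor in every library. The part of other cells in the *Cd80* difference was not tested.

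*Ctla4*, whose product competes with CD28 for CD80 and CD86, was at 3930 and 4192 in Acute-2d, at 2554 and 2348 in Acute-7d, at 2408 and 2428 in Effector and at 1685 and 1340 in T_Dysf. It fell in T_Dysf by 1.43 ± 0.12 on the log2 scale against Acute-2d (adjusted p = 0.00547), and stood at -0.70 ± 0.12 against Acute-7d (adjusted p = 0.0345), under the 2-fold limit. The log2 ratio of *Cd28* to *Ctla4* was 0.50 and 0.93 in T_Dysf, 0.80 and 0.44 in Acute-7d, 0.07 and 0.46 in Effector and -0.14 and -0.51 in Acute-2d. The ratio was lowest in Acute-2d and overlapped between T_Dysf and Acute-7d.

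Of 21 genes listed for signalling below CD28 and ICOS, 1 rose and 0 fell in T_Dysf against Acute-7d (5.57% of all genes called), with a median of 0.14. The gene that rose was *Pik3cb*, a catalytic subunit of PI3-kinase, at 117 and 140 in Acute-7d and at 601 and 559 in T_Dysf (2.17 ± 0.12, adjusted p = 0.00306). In Effector against Acute-7d 0 of the 21 were called, compared with 8.06% of all genes.

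*Cd226* was lowest in Effector. It was at 2204 and 2631 there, at 3994 and 3437 in Acute-2d, at 4241 and 3880 in Acute-7d and at 4402 and 4765 in T_Dysf. Both Effector libraries were below all others, and both T_Dysf libraries above all others. The adjusted p passed for Effector against Acute-2d (-0.62 ± 0.13, adjusted p = 0.0374), against Acute-7d (-0.75 ± 0.13, adjusted p = 0.0266) and for T_Dysf against Effector (0.93 ± 0.13, adjusted p = 0.0144), but each difference was under the 2-fold limit. The last one exceeded it without Effector replicate 2 (1.05, adjusted p = 0.0295). T_Dysf and Acute-7d differed by 0.17, with an interval from -0.15 to 0.50.

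The receptors that share ligands with CD226 varied over a wider range. *Tigit*, an inhibitory receptor, was at 1860 and 977 in Effector, at 236 and 153 in Acute-2d, at 425 and 351 in Acute-7d and at 3097 and 2665 in T_Dysf. It rose in T_Dysf by 2.89 ± 0.38 against Acute-7d (adjusted p = 0.0181) and in Effector by 1.80 ± 0.38 against Acute-7d (adjusted p = 0.0413). The log2 ratio of *Cd226* to *Tigit* was therefore 0.51 and 0.84 in T_Dysf and 0.24 and 1.43 in Effector, compared with 3.32 and 3.47 in Acute-7d and 4.08 and 4.49 in Acute-2d. The ratio separated the T_Dysf and Effector libraries from the rested ones, with *Cd226* higher than *Tigit* in all 8 (per gene, not per length).

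*Cd96*, which also binds CD155, was at 12048 and 12188 in T_Dysf and between 2452 and 3507 in the other libraries, and rose by 1.98 ± 0.18 against Acute-7d (adjusted p = 0.00801). The ligand gene *Pvr* (CD155) was at 515 and 446 in T_Dysf and at 867 and 744 in Acute-7d. Its differences from Acute-7d, -0.74 ± 0.11 in T_Dysf (adjusted p = 0.0251) and -0.82 ± 0.11 in Effector (adjusted p = 0.0194), were under the 2-fold limit. *Nectin2* (CD112) was between 1.12 and 8.03 except in Effector replicate 1, at 35.6, and was not called.

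**Figure D3:**
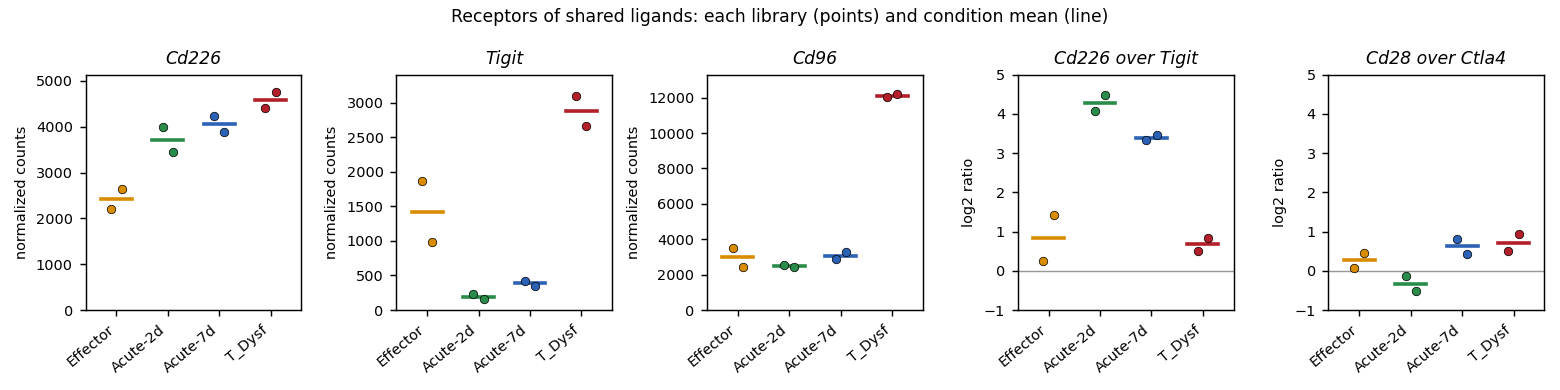
The first 3 panels show normalized counts (y axis, linear, from 0) of *Cd226*, *Tigit* and *Cd96*, and the last 2 the log2 ratio of *Cd226* to *Tigit* and of *Cd28* to *Ctla4*, in the 2 libraries of each condition (points) with the condition mean (line). The *Cd226* to *Tigit* ratio is between 0.24 and 1.43 in Effector and T_Dysf and between 3.32 and 4.49 in the Acute conditions.

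*Cd27*, whose product supports survival and memory of CD8+ T cells, was lower in T_Dysf by a little over 2-fold. It was at 1363 and 1300 in T_Dysf, at 2665 and 3263 in Effector, at 2931 and 3280 in Acute-2d and at 3079 and 2747 in Acute-7d. The 6 other libraries overlapped one another and all lay above T_Dysf. *Cd27* fell by 1.13 ± 0.13 on the log2 scale against Acute-7d (adjusted p = 0.0128), with -1.22 ± 0.13 against Acute-2d (adjusted p = 0.00838) and -1.15 ± 0.13 against Effector (adjusted p = 0.00969). Without T_Dysf replicate 1 all 3 calls were lost, with little change in size (-1.16, -1.25 and -1.18, adjusted p = 0.0547 to 0.0755). The call against Acute-7d was also lost without Acute-7d replicate 1, the RESUB library (-1.04, adjusted p = 0.0721). Its ligand gene *Cd70* was at or under the floor in every library except Effector replicate 2, at 11.0. Of the *Cd27* exon bases, 5.54% are shared with *Mir8113*, a microRNA gene on the same strand.

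*Tnfrsf9* (CD137), an activation-induced receptor, was high in Effector and in T_Dysf. It was at 3207 and 4216 in Effector, at 2691 and 3009 in T_Dysf, at 1329 and 1416 in Acute-2d and at 951 and 1323 in Acute-7d. Both T_Dysf libraries lay above all 4 Acute libraries and below both Effector libraries. *Tnfrsf9* rose in T_Dysf by 1.34 ± 0.21 against Acute-7d (adjusted p = 0.0276) and by 1.05 ± 0.21 against Acute-2d (adjusted p = 0.0410). It rose in Effector by 1.71 ± 0.21 against Acute-7d (adjusted p = 0.0167) and by 1.42 ± 0.21 against Acute-2d (adjusted p = 0.0200). T_Dysf and Effector differed by -0.37 ± 0.21 (adjusted p = 0.306).

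The calls of *Tnfrsf9* rested on single libraries, although these 4 differences kept their direction in all 20 alternatives. Against Acute-7d the T_Dysf call was lost without Acute-7d replicate 1 (1.10, adjusted p = 0.0942) and without either T_Dysf or either Acute-2d library (1.26 to 1.42, adjusted p = 0.0638 to 0.118). Against Acute-2d it was lost without any 1 of the 4 libraries compared (0.97 to 1.13, adjusted p = 0.126 to 0.162) and, on fold size alone, with equal 75th percentiles (0.99). In Effector the call against Acute-7d was lost without Effector replicate 2 (1.52, adjusted p = 0.0506) or Acute-7d replicate 1 (1.47, adjusted p = 0.0632). The call against Acute-2d was lost without Effector replicate 2 (1.22) and without any Acute-2d or T_Dysf library (1.38 to 1.47, adjusted p = 0.0525 to 0.0927). The ligand gene *Tnfsf9* was between 41.2 and 162 and was not called in any comparison.

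*Tnfrsf4* (OX40) was low throughout. It was at 349 and 532 in Effector, at 232 and 257 in Acute-2d, at 300 and 213 in Acute-7d and at 137 and 145 in T_Dysf. Effector was above and T_Dysf below all other libraries. *Tnfrsf4* fell in T_Dysf by 1.61 ± 0.26 on the log2 scale against Effector (adjusted p = 0.0217), whereas its differences from Acute-7d (-0.84 ± 0.26, adjusted p = 0.127) and Acute-2d (-0.79 ± 0.26, adjusted p = 0.133) did not pass. The call against Effector was lost without Effector replicate 2 (-1.30) and without any Acute-2d or T_Dysf library (-1.56 to -1.65, adjusted p = 0.0510 to 0.111), and the cells of these conditions also differed in collection day. OX40 and CD137 are both induced by activation, but in T_Dysf *Tnfrsf4* lay below the rested cells and *Tnfrsf9* above them. The ligand gene *Tnfsf4* was at 26.5 and 27.1 in Effector and at 64.7 and 119 in Acute-7d, and fell in Effector by 1.68 ± 0.34 (adjusted p = 0.0388).

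*Tnfrsf18* (GITR), the neighbour of *Tnfrsf4* on chromosome 4, followed another order. It was at 1746 and 1482 in Effector, at 2708 and 3315 in Acute-2d, at 2267 and 2430 in Acute-7d and at 1724 and 1864 in T_Dysf. Acute-2d was highest, and T_Dysf overlapped Effector. The differences of T_Dysf (-0.74 ± 0.13, adjusted p = 0.0315) and of Effector (-0.90 ± 0.13, adjusted p = 0.0203) from Acute-2d passed the adjusted p but not the fold limit. The Effector difference passed both without Effector replicate 1 (-1.01) or Acute-2d replicate 1 (-1.04). Of its exon bases, 27.2% overlap *Gm16008*, an antisense gene whose means ran from 34.6 in T_Dysf to 128 in Acute-2d. Whether strand was used in counting is not given in the sources used here, so reads of the pair cannot be told apart.

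*Tnfrsf1b* (TNFR2), the TNF receptor that lacks a death domain, was highest in T_Dysf. It was at 5298 and 5560 in T_Dysf, at 2412 and 2782 in Effector, at 2252 and 2489 in Acute-2d and at 2814 and 2414 in Acute-7d. The 6 other libraries overlapped one another and all lay below T_Dysf. *Tnfrsf1b* rose by 1.06 ± 0.11 against Acute-7d (adjusted p = 0.0120), by 1.20 ± 0.11 against Acute-2d (adjusted p = 0.00710) and by 1.07 ± 0.11 against Effector (adjusted p = 0.00923). The size is near the 2-fold limit. The call against Acute-7d was lost without Acute-7d replicate 2 (0.95), without T_Dysf replicate 1 (1.09, adjusted p = 0.0704) and with equal 75th percentiles (0.98), and that against Effector without Effector replicate 1 (0.96) or T_Dysf replicate 1 (1.10, adjusted p = 0.0575). The call against Acute-2d held under all 20 alternatives.

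The ligands of TNFR2 were not called in the same comparison. *Tnf* was at 761 and 815 in T_Dysf and at 881 and 598 in Acute-7d (0.12 ± 0.50, adjusted p = 0.978). *Lta* was at 268 and 222 in T_Dysf and at 778 and 436 in Acute-7d (-1.26 ± 0.57, adjusted p = 0.250). *Ltb*, whose product joins lymphotoxin-α in a membrane complex, was at 5584 and 6338 in T_Dysf and at 16730 and 17884 in Acute-7d, and fell by 1.54 ± 0.26 (adjusted p = 0.0345). Of the 12 ligand genes in the table, 1 rose (*Cd80*) and 1 fell (*Ltb*) in T_Dysf against Acute-7d (5.57% of all genes called).

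*Tnfrsf14* (HVEM), which can act as receptor or as ligand, was lowest in Effector. It was at 134 and 213 there, at 458 and 420 in Acute-2d, at 442 and 416 in Acute-7d and at 333 and 261 in T_Dysf. The T_Dysf libraries lay between Effector and the Acute conditions without overlap. *Tnfrsf14* fell in Effector by 1.34 ± 0.25 on the log2 scale against Acute-7d (adjusted p = 0.0324), with -1.37 ± 0.25 against Acute-2d (adjusted p = 0.0297). Both calls were lost without any 1 of the Acute-2d, Acute-7d or T_Dysf libraries (-1.29 to -1.43, adjusted p = 0.0605 to 0.142). The T_Dysf difference from Effector, 0.80 ± 0.25 (adjusted p = 0.10), passed both limits without Effector replicate 2 (1.13, adjusted p = 0.0463).

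The inhibitory receptors that bind HVEM were highest in Effector, where HVEM was lowest. *Btla* was at 928 and 1036 in Effector, at 209 and 97.2 in Acute-2d, at 289 and 242 in Acute-7d and at 69.9 and 60.5 in T_Dysf. It rose in Effector by 1.89 ± 0.37 against Acute-7d (adjusted p = 0.0372) and fell in T_Dysf by 2.01 ± 0.37 (adjusted p = 0.0414). *Cd160* was at 1437 and 945 in Effector and between 498 and 710 elsewhere, and was called only in T_Dysf against Effector (-1.11 ± 0.25, adjusted p = 0.0484). The ligand gene *Tnfsf14* (LIGHT) was at 126 and 147 in T_Dysf, at 222 and 257 in Acute-7d and at 291 and 606 in Effector, and was not called. Of the 5 inhibitory partners, 2 rose (*Tigit*, *Cd96*) and 1 fell (*Btla*) in T_Dysf against Acute-7d (5.57% of all genes called), with a median of -0.18.

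**Figure D4:**
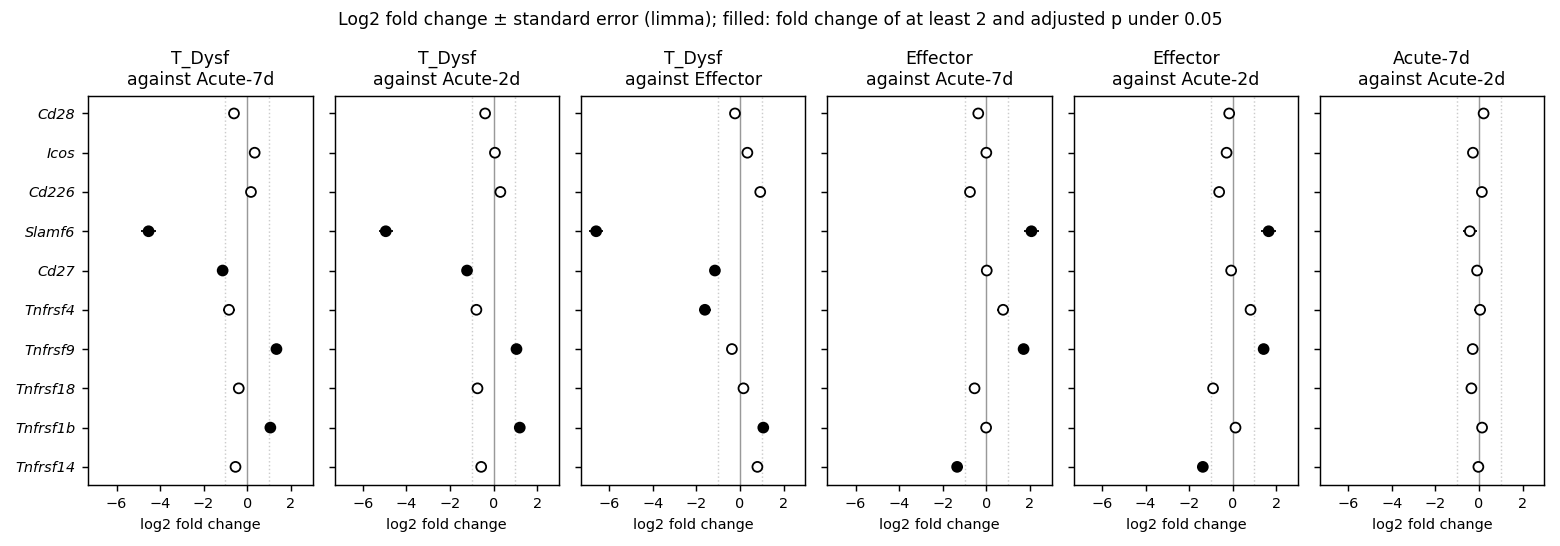
Log2 fold change (x axis) ± standard error of the 10 receptors in each of the 6 comparisons, from limma on log2(normalized count + 1). Error bars shorter than a point are hidden by it. Filled points passed a fold change of at least 2 (dotted lines) and an adjusted p under 0.05. *Slamf6*, *Cd27* and *Tnfrsf1b* are filled in all 3 T_Dysf comparisons, and no point is filled in Acute-7d against Acute-2d.

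In Effector against Acute-7d *Slamf6* and *Tnfrsf9* rose and *Tnfrsf14* fell, 3 of the 10, with 8.06% of all genes called and 12.6% of those with a mean of at least 50. The same 3 genes were called against Acute-2d, where 8.78% of all genes and 13.8% of those with a mean of at least 50 were. On the adjusted p alone, without the fold limit, *Cd226* and *Tnfrsf18* were added, making 5 of the 10, compared with 15.7% of all genes. The median over the 10 receptors was 0.00 against Acute-7d and -0.12 against Acute-2d. *Tnfrsf9* was higher than in the rested cells in both Effector and T_Dysf, whereas *Slamf6* was higher in Effector and lower in T_Dysf. *Cd27* and *Tnfrsf1b* differed between Effector and Acute-7d by 0.02 ± 0.13 (adjusted p = 1.0) and -0.01 ± 0.11 (adjusted p = 1.0).

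No receptor was called between the rested conditions, which differ in the length of the first stimulation. In Acute-7d against Acute-2d limma called 0 of the 10, compared with 0.169% of all genes and 0.0166% of those with a mean of at least 50. At an unadjusted p under 0.05, 1 of the 10 passed, compared with 7.31% of all genes. It was *Tnfrsf18*, at -0.35 ± 0.13 (unadjusted p = 0.0468, limma). The difference nearest to 0 was that of *Tnfrsf14*, at -0.03, whose interval still ran from -0.68 to 0.61.

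The other receptors of the TNF receptor superfamily moved in both directions. Of 18 in the table, 2 rose and 6 fell in T_Dysf against Acute-7d, where 5.57% of all genes were called. The median was -0.59, or -0.26 with genes at the floor set to no change or to their bound. *Tnfrsf11b*, the soluble decoy osteoprotegerin, was at 277 and 218 in Acute-7d and at 8.63 and 6.23 in T_Dysf, and fell by 4.89 ± 0.38 on the log2 scale (adjusted p = 0.00554). *Tnfrsf23*, a decoy receptor with close relatives beside it that may share reads, was at 192 and 144 and at 7.22 and 5.34, and fell by 4.53 ± 0.35 (adjusted p = 0.00562). *Tnfrsf25* (DR3), a death-domain receptor that also costimulates T cells, was at 23.4 and 19.2 in Acute-7d and at 0 in both T_Dysf libraries, at least 8.10-fold lower against a floor of 3 reads averaged over the T_Dysf libraries (called, adjusted p = 0.0231).

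Those that rose were *Tnfrsf11a* (RANK) and *Tnfrsf13b* (TACI). *Tnfrsf11a* was at 30.2 and 39.1 in T_Dysf and at or under the floor in Acute-7d, at least 10.9-fold higher (adjusted p = 0.0114). *Tnfrsf13b*, a receptor better known from B cells, was at 987 and 1008 in T_Dysf and at 306 and 467 in Acute-7d (1.40 ± 0.22, adjusted p = 0.0290). The 5 B cell markers moved with it, summing to between 153 and 168 in T_Dysf and to between 55.8 and 68.7 in Acute-7d (109 to 178 in Effector and Acute-2d). Most of this sum was *Cd79b*, at 136 and 115 in T_Dysf and at 30.1 and 38.4 in Acute-7d (1.84 ± 0.30, adjusted p = 0.0307), whereas *Ms4a1* was at 2.59 and 1.78 in T_Dysf. The part of B cells in the *Tnfrsf13b* difference was not tested. In Effector *Tnfrsf8* (CD30) was at 560 and 1024, compared with 21.2 and 10.1 in Acute-7d (5.59 ± 0.61, adjusted p = 0.0143) and 42.3 and 27.6 in T_Dysf. *Tnfrsf8* was thus higher in Effector but, unlike *Tnfrsf9*, was not called in T_Dysf against Acute-7d (1.16 ± 0.61, adjusted p = 0.309).

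**Figure D5:**
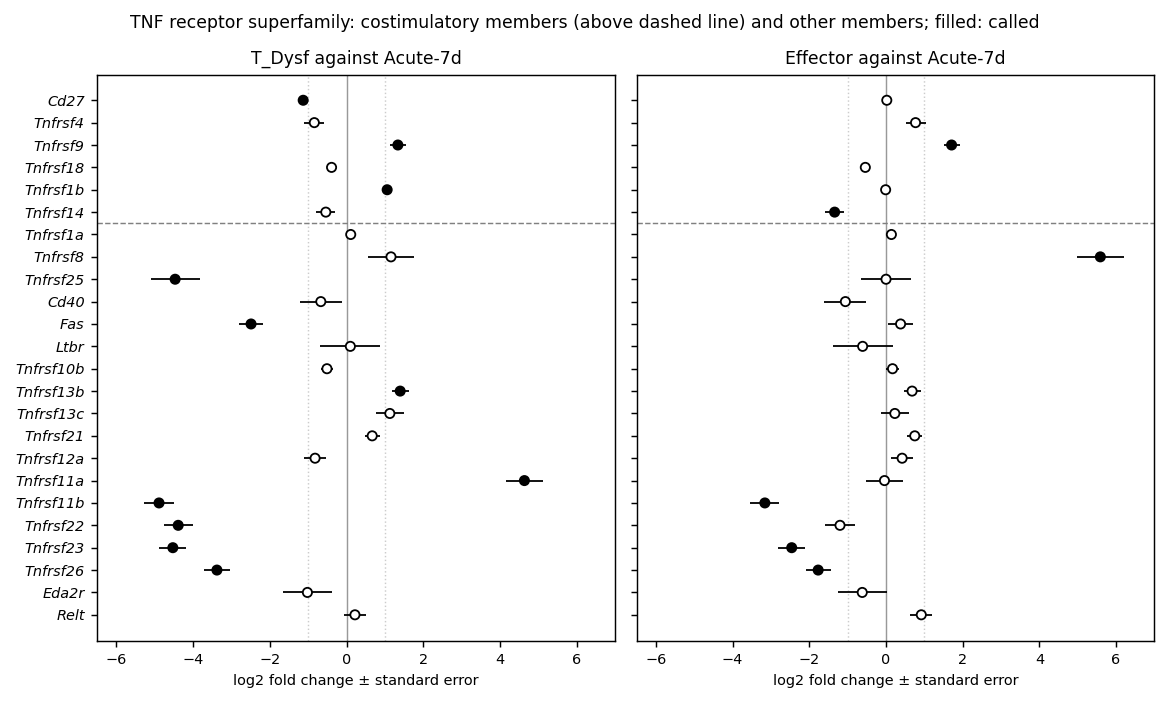
Log2 fold change (x axis) ± standard error of TNF receptor superfamily genes against Acute-7d, in T_Dysf (left) and Effector (right). The 6 costimulatory receptors described here are above the dashed line, and filled points passed the fold change and adjusted p limits. The fitted values of *Tnfrsf25* and *Tnfrsf11a* in T_Dysf are against a condition at or under 3 reads and are not sizes, and *Cd40* is at or under 3.03 normalized counts throughout.

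Of 14 TRAF adaptors and associated regulators, 1 rose and 0 fell in T_Dysf against Acute-7d (5.57% of all genes called), with a median of -0.13. It was *Traf4*, an adaptor that binds GITR among other receptors, at 608 and 610 in Acute-7d and at 1770 and 1850 in T_Dysf (1.57 ± 0.15, adjusted p = 0.00973). In Effector against Acute-7d *Siva1*, which encodes a CD27-binding protein, rose by 1.42 ± 0.21 (adjusted p = 0.0215), from 193 and 266 to 542 and 683.

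To compare levels between the receptors, condition means were divided by the kilobases of annotated exon of each gene (GENCODE vM21, GRCm38). In T_Dysf *Tnfrsf1b* had the highest level per kilobase, at 1422, followed by *Tnfrsf18* at 1177 and *Tnfrsf9* at 1047. In Acute-7d the highest were *Tnfrsf18* at 1541 and *Cd27* at 1251, and *Tnfrsf1b* was at 685. In Effector *Tnfrsf9* was highest, at 1363 per kilobase, followed by *Cd27* at 1273. *Slamf6* was lowest per kilobase in every condition, from 0.485 in T_Dysf to 58.1 in Effector. Its exon length of 10.8 kb is the longest of the 10 and lowers its level per kilobase. Without the division its Effector mean, 629, was above those of *Tnfrsf4* (440) and *Tnfrsf14* (174). The reads were counted on RefSeq transcripts, so the counted lengths can differ from these.

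Of the genes, 5 (*Tnfrsf4*, *Tnfrsf9*, *Tnfrsf18*, *Tnfrsf1b* and *Tnfrsf14*) lie on chromosome 4, and *Cd28* and *Icos* lie near each other on chromosome 1. The nearest pair differed in the order of its condition means. *Tnfrsf4* (chr4:156013843-156016612) had its highest mean in Effector. *Tnfrsf18* (chr4:156026164-156028895) had its lowest there, with libraries that overlapped T_Dysf. Both genes were lower in T_Dysf than in Acute-7d (-0.84 ± 0.26 and -0.39 ± 0.13) and Acute-2d (-0.79 ± 0.26 and -0.74 ± 0.13). None of these differences from the Acute conditions was called. *Slamf6* lies on the plus strand of chromosome 1 at 171917515 to 171953170, and *Cd27* on the minus strand of chromosome 6 at 125232622 to 125237010.

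The genes whose pattern over the 8 libraries was most like that of each receptor were taken from the 12028 genes with a mean of at least 50, by the root mean square (RMS) difference of centred log2 values. For *Tnfrsf1b* they were *Slc9a3r1* (0.09) and *Maco1* (0.10), for *Tnfrsf9* they were *Nxt1* (0.10) and *Fndc9* (0.14), and for *Cd27* they were *Znhit6* and *Fam169b* (0.09 each). For *Cd226* they were *Mcur1* (0.06) and *H3f3b* (0.07), for *Tnfrsf4* *Tcof1* (0.09) and *Mybbp1a* (0.13), and for *Tnfrsf14* *Dennd4c* (0.13) and *Il18bp* (0.14). *Slamf6* had no gene as near on this measure, which is not scaled to how far a gene varies. Its condition means spanned 6.60 on the log2 scale, and those of the other receptors 0.34 to 1.71. The gene closest to *Slamf6*, *Acsl3*, was at an RMS difference of 0.55 and the next, *Gm6545*, at 0.61.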

How the data were processed

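The authors used STAR for alignment to mm10 and Partek Flow for quantification to RefSeq transcripts, and deposited a signal, estimated counts per gene divided by DESeq2 median-ratio size factors. Their filter on low genes was not applied to the deposited table. From 51.0% to 74.9% of values under 1000 reads were whole multiples (within 0.01) of 1 read, so count models were not fitted. limma (3.58.1, R 4.3.3; lmFit and eBayes with trend, two-sided) was fitted to log2(x + 1) of 24303 genes and 8 libraries, with 4 group means and no covariate (4 residual degrees of freedom). The procedure was also run on simulated data with independent noise, which do not cover cells of a shared source or the RESUB libraries. With 2 libraries against 2 the smallest exact permutation p is 0.333, so single genes were not permuted. Summaries and plots used Python 3.11.15, pandas 2.3.3 and matplotlib 3.10.9. Named were the 10 receptors, any ligand or inhibitory partner, at most 3 genes a direction from other lists among those called against Acute-7d in T_Dysf or Effector, 2 genes of nearest pattern and defining cell markers. Receptors and lists were chosen with earlier results of these data known. Alternatives were pseudocounts, filters, scalings, a 2-group fit, a replicate block, a RESUB term, other thresholds and leaving out each library.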

Additional observations from a re-analysis of the deposited data

How the results depend on the processing

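Over 20 alternatives, 1113 values of the 10 receptors kept their side of the limits, 78 lost a call and 9 gained one. Of called values, 0 changed sign. Among the 1113 were 831 values uncalled both as reported and in the alternative, and 24 of these had the other sign. The fit of only the 2 conditions compared called 0 receptors in Effector against Acute-2d, 0 in Effector against Acute-7d and 1 in T_Dysf against Effector, in place of 3, 3 and 4, as the share of all genes called fell to 0.967%, 0.638% and 1.91% (from 8.78%, 8.06% and 9.22%). With a term for the RESUB libraries these became 0, 1 and 1, and T_Dysf against Acute-7d had 2 in place of 4 (*Cd27* and *Tnfrsf9* lost), with 1.44%, 3.32%, 1.59% and, for the last, 2.23% (from 5.57%) of all genes called. Only Acute-7d had libraries with and without RESUB, so this term rested on the difference between its 2 libraries. In T_Dysf against Acute-7d it amounts to leaving out Acute-7d replicate 1, and it does not separate Effector from RESUB otherwise. Without the fold limit Effector against Acute-2d had 5 in place of 3. With 1 library left out, the count ran from 1 to 4 in T_Dysf against Acute-7d (1.74% to 6.31% of all genes), 2 to 4 against Acute-2d (2.70% to 7.68%) and 1 to 5 against Effector (2.41% to 10.2%). It ran from 0 to 3 in Effector against Acute-7d (1.56% to 8.87%), from 0 to 4 against Acute-2d (2.28% to 9.72%), and was 0 in Acute-7d against Acute-2d (0.251% to 1.55%). The lowest T_Dysf counts were those without T_Dysf replicate 1. A condition left with 1 library was assumed to vary like the others.

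Replicate numbers were not taken as pairs: over 6 pairs of conditions the correlation of replicate differences across genes ran from -0.199 to 0.197, and 2 exceeded 0.1. With a replicate block Effector against Acute-2d had 1 receptor in place of 3 (6.36% of all genes), and *Tnfrsf14* lost its call against Acute-7d (-1.34, adjusted p = 0.0638). Calls over all genes moved as well: without the looser thresholds they ran from 422 to 1712 (1353 as reported) in T_Dysf against Acute-7d, from 656 to 1989 (1787) against Acute-2d and from 386 to 2532 (2241) against Effector. They ran from 155 to 2176 (1958) in Effector against Acute-7d, from 235 to 2370 (2135) against Acute-2d, and from 1 to 376 (41) in Acute-7d against Acute-2d. Depth limits *Slamf6* in T_Dysf, *Cd70*, *Tnfrsf11a* and *Tnfrsf25*.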
